A study of Mus musculus with 6 samples.

Results

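Genes that set cell polarity and the orientation of cell division were followed in ribosome-bound mRNA of the adult mouse dentate gyrus, with and without deletion of Klf9 in Gli1+ radial glia-like neural stem cells (RGLs). The 10 genes were a fixed list, kept whatever their measured levels: Numb, Numbl, Pard3, Pard6a, Prkci, Prkcz, Llgl1, Gpsm2, Cdc42 and Cdh2. The list was chosen with earlier results of these data known. All 10 were found among the 37620 genes of the count files, and all 10 passed the filter of more than 1 CPM (counts scaled to the library size) in at least 1 sample. Each of the 10 had at least 577 reads in every sample, so none was limited by low counts.

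The 6 samples were from mice 2–3 months of age that carried Gli1 CreERT2 and 1 floxed Rpl22-HA (RiboTag) allele, with either 2 intact (Klf9 +/+, 3 samples) or 2 floxed (Klf9 f/f, 3 samples) copies of Klf9. All mice received tamoxifen, the Klf9 +/+ controls included, and dentate gyri were taken 4 days after the last injection, with 6 gyri from 3 mice pooled in each sample. Cre recombination tags ribosomes with HA, and an anti-HA antibody recovers the mRNAs they carry. Gli1 CreERT2 recombines in astrocytes as well as in RGLs, so the pull-down is a mixture, and in such bulk samples fewer cells of a type and less RNA per cell cannot be told apart. The titles carry a code that begins with YTa22 for replicates 1 and 2 of each genotype and with YTa32 for replicate 3. These are called library series 22 and 32 here, which is a reading of the titles, since the labels do not say what the code marks. Replicate numbers are running numbers within a genotype and pair no samples.

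Reads counted on genes numbered 52188635 to 66343759 in series 22, and 27594529 and 21594714 in the samples of series 32. Klf9 itself stood at 200.9, 203.9 and 139.0 CPM in the Klf9 +/+ samples and at 114.3, 121.3 and 120.0 CPM in the Klf9 f/f samples. The groups did not overlap, and 1.35% of all genes tested were separated in this direction. The fold of Klf9 was 0.663, with an interval of 0.525 to 0.838. Its unadjusted p was 0.00319 and its adjusted p 0.844 by edgeR's quasi-likelihood test. The log2 difference of Klf9 was -0.78 within series 22 and smaller, -0.21, in series 32. The 10 radial glia-like cell markers summed to 5019 to 6653 CPM in Klf9 +/+ and 6282 to 7190 CPM in Klf9 f/f, and the 12 astrocyte markers to 14070 to 17940 and 17450 to 21100 CPM. Gfap is in both of these lists, and the other 9 radial glia-like cell markers summed to 2512 to 4442 CPM in Klf9 +/+ and 3164 to 4014 CPM in Klf9 f/f, which overlap. The 10 granule neuron markers summed to 1286 to 1544 and 1321 to 1435 CPM. The 12 choroid plexus markers, from a tissue outside the dentate gyrus, ranged from 256 to 4130 CPM in Klf9 +/+ and from 107 to 773 CPM in Klf9 f/f. By the threshold given below, 12 of 12 choroid plexus markers were called lower and 5 of 12 astrocyte markers higher, the direction of these sums. Also called lower were 6 of 13 endothelial and mural, 2 of 6 ependymal and 1 of 10 meningeal markers. The ependymal markers Tmem212 and Ccdc153 exceeded 1 CPM only in Klf9 +/+ samples. They were thus tested only through the group where they were higher, and the ependymal count is given as a description. Called higher were 2 of 9 oligodendrocyte lineage markers and 1 of 10 radial glia-like cell markers. The granule neuron, interneuron and microglia lists had 0 called. Over all genes tested, 1.82% were called higher and 2.5% lower. None of these markers was at 0 in any sample.

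A dividing stem cell is polarized when proteins are held at one side of its cortex and inherited unequally. Cdc42, a small GTPase, binds the scaffold protein Par6 and with it the atypical protein kinases C and the scaffold Par3, which together mark one domain of the cortex. Lgl1, the product of Llgl1, is phosphorylated by atypical protein kinase C and is thereby kept out of that domain. LGN, the product of Gpsm2, links the cortex to the mitotic spindle and so sets the plane of division. Numb and its relative Numb-like are endocytic adaptors that counteract Notch in the daughter that receives them, and N-cadherin, the product of Cdh2, holds radial glia at their adherens junctions. The study asked how Klf9 affects the divisions of RGLs, and the comparison here asks whether the mRNAs of these genes on the tagged ribosomes differed between the genotypes.

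None of the 10 genes was called higher or lower in Klf9 f/f at 1.2-fold and an unadjusted p under 0.05, the threshold of the study's methods. Over all 15056 genes tested, 4.32% were called, 1.82% higher and 2.5% lower. Under adjustment for all genes tested, 0 of the 10 passed 0.05 (0% of all genes tested), and the adjusted p was 1.00 for each of the 10 (edgeR's quasi-likelihood test with the library series as a term, Benjamini-Hochberg adjustment). With unadjusted p-values, 0 of the 10 were under 0.05. The log2 fold changes, Klf9 f/f over Klf9 +/+, ran from -0.15 to 0.30, with standard errors of 0.13 to 0.20, and 5 were positive and 5 negative. Their median was 0.03, against 0.00084 over all genes tested. The 95% intervals spanned folds from 0.706 to 1.68 at their outer ends, and for 8 of the 10 they lay within 1.5-fold in either direction. Prkci and Cdh2 were the 2 whose intervals reached beyond 1.5-fold, both on the upper side. Any difference within its interval is compatible with the values of these 3 samples a genotype.

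**Figure D1:**
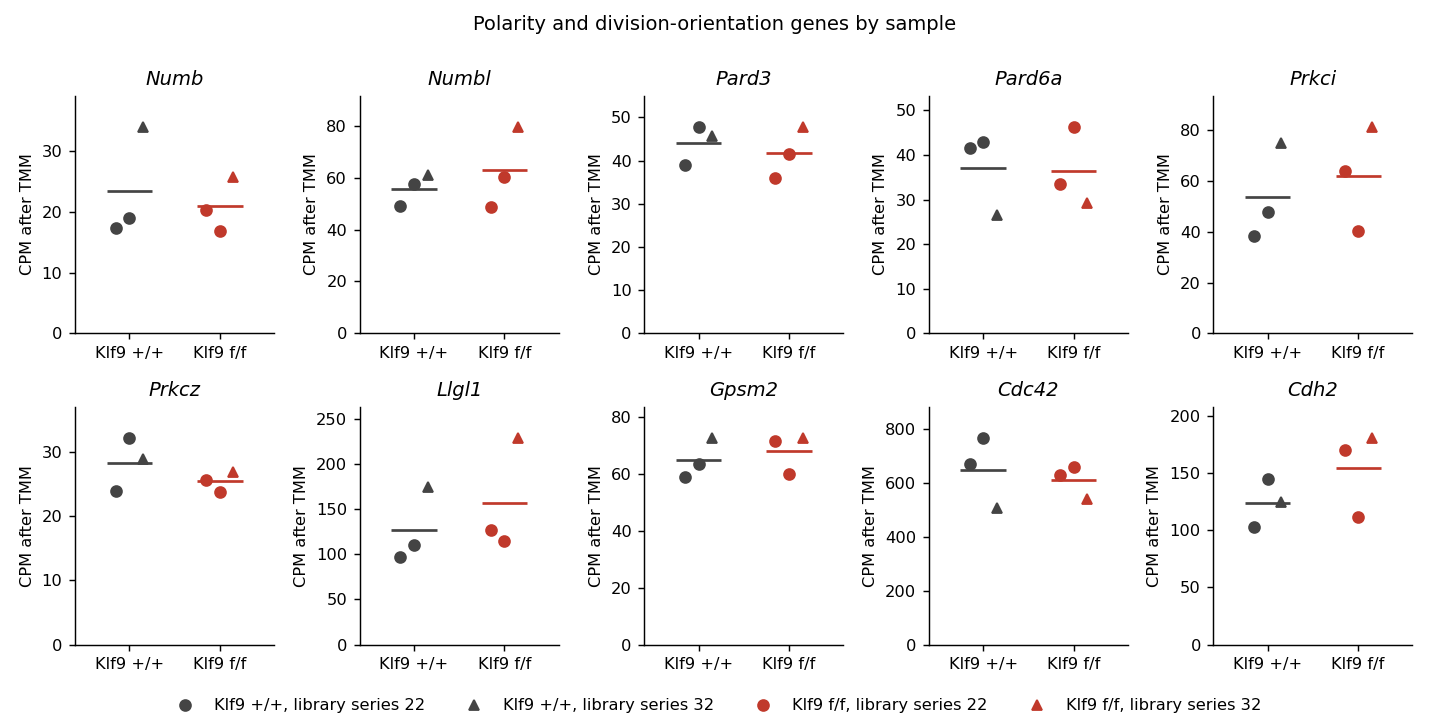
CPM after TMM scaling of each of the 10 genes in the 3 Klf9 +/+ samples (dark) and the 3 Klf9 f/f samples (red), on axes that start at 0, with a bar at the mean of each group. Circles are library series 22 and triangles library series 32; in every panel the genotypes overlap, while Numb, Prkci and Llgl1 are highest in the triangles and Pard6a and Cdc42 lowest.

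Numb (ENSMUSG00000021224) is read from the minus strand of mm9 chromosome 12 (85134984 to 85262884). The gene measured 17.3, 18.9 and 34.0 CPM in replicates 1, 2 and 3 of Klf9 +/+, against 20.3, 16.7 and 25.7 CPM in those of Klf9 f/f. In both genotypes the sample of library series 32 was the highest. The log2 fold change was -0.11 ± 0.16 (SE), a fold of 0.927 with a 95% interval of 0.720 to 1.19. Within series 22 the log2 difference was 0.03 and in series 32 it was -0.40, so the negative sign came from the single pair of series 32. The test of the interaction between genotype and series did not separate these values (log2 difference -0.44 ± 0.38, unadjusted p = 0.274 by edgeR's quasi-likelihood test). Series 32 held 1 sample a genotype, so a gene's residual spread in this test came from series 22 alone. The test therefore does not show that the series agree. No gene of the 10 had an interaction p under 0.05, against 1.53% of all genes tested.

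Numbl (ENSMUSG00000063160, chromosome 7 of mm9, 28043452 to 28067163) was at 48.9, 57.4 and 61.2 CPM in Klf9 +/+, against 48.8, 60.4 and 79.7 CPM in Klf9 f/f. The highest value of the 6 was that of Klf9 f/f replicate 3, and in series 22 the genotypes overlapped. The log2 fold change was 0.15 ± 0.15 (SE), with an interval of -0.19 to 0.49. Because Numb and Numb-like share much of their role, the ratio of Numb to Numbl reads was also taken, which needs no scaling between samples. It was 0.353, 0.330 and 0.555 in Klf9 +/+ and 0.417, 0.277 and 0.322 in Klf9 f/f. The mean log2 ratio differed by -0.27 between the genotypes (exact permutation test over the 6 samples, two-sided, p = 0.400, where the smallest possible p is 0.1). That difference was -0.0050 within series 22 and -0.79 in series 32.

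Among the genes of the Par complex, Cdc42 (ENSMUSG00000006699, minus strand of chromosome 4, 136875611 to 136913635) encodes the GTPase that recruits the others and was at 669, 768 and 508 CPM in Klf9 +/+ and 631, 660.1 and 542 CPM in Klf9 f/f. Within series 22 both Klf9 f/f samples lay below both Klf9 +/+ samples, a log2 difference of -0.15, and in series 32 the Klf9 f/f sample lay above its control, a log2 difference of 0.09. The log2 fold change of all samples was -0.07 ± 0.14 (SE), and the interaction with series did not pass the test (unadjusted p = 0.512 by edgeR's quasi-likelihood test).

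Pard3 (ENSMUSG00000025812, chromosome 8, 129587793 to 130136186), which encodes the scaffold Par3, was at 38.9, 47.8 and 45.7 CPM in Klf9 +/+, against 36.1, 41.5 and 47.9 CPM in Klf9 f/f. The samples of the genotypes were interleaved, and the log2 fold change was -0.09 ± 0.14 (SE). Pard6a (ENSMUSG00000005699, chromosome 8, 108225054 to 108227393), which encodes a Par6 protein, was at 41.6, 43.0 and 26.5 CPM in Klf9 +/+, against 33.5, 46.4 and 29.2 CPM in Klf9 f/f. The value closest to no change was that of Pard6a, with a log2 fold change of -0.01 ± 0.16 (SE) and an interval of -0.36 to 0.34. The related Pard6g and Pard6b had log2 fold changes of -0.21 ± 0.16 and -0.27 ± 0.26 (SE).

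The atypical protein kinase C genes had log2 fold changes of opposite sign, neither past the threshold. Prkci (ENSMUSG00000037643, chromosome 3, 30894669 to 30951663) was at 38.2, 48.0 and 75.0 CPM in Klf9 +/+, against 64.0, 40.3 and 81.5 CPM in Klf9 f/f, a log2 fold change of 0.22 ± 0.19 (SE). Klf9 f/f replicate 1 was the one sample of series 22 that stood apart for this gene, while Klf9 f/f replicate 2 lay between the Klf9 +/+ samples. Without Klf9 f/f replicate 1 the log2 fold change of Prkci was -0.0043. Prkcz (ENSMUSG00000029053, minus strand of chromosome 4, 154634238 to 154735470) was at 23.8, 32.1 and 28.8 CPM in Klf9 +/+, while Klf9 f/f gave 25.6, 23.8 and 26.9 CPM. The estimated log2 fold change was -0.15 ± 0.15 (SE), with -0.17 within series 22 and -0.10 in series 32. In brain, Prkcz also gives rise to a shorter kinase, PKM-zeta, from an internal promoter, which counts per gene do not tell apart from the full kinase. The ratio of Prkci to Prkcz reads was 1.604, 1.49 and 2.60 in Klf9 +/+ and 2.50, 1.69 and 3.03 in Klf9 f/f. The mean log2 ratio was higher by 0.35 in Klf9 f/f, which the exact permutation test over the 6 samples did not separate from 0 (two-sided, p = 0.300, smallest possible p 0.1), and it was higher by 0.41 within series 22 and by 0.22 in series 32.

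Llgl1 (ENSMUSG00000020536, chromosome 11, 60513225 to 60527688) came nearest to the threshold. The controls measured 96.8, 109.9 and 174 CPM (replicates 1 to 3) and the Klf9 f/f samples 127, 114 and 229 CPM. Within series 22 both Klf9 f/f samples lay above both Klf9 +/+ samples, and the Klf9 f/f sample of series 32 lay above its Klf9 +/+ counterpart, by 0.22 and 0.40 on the log2 scale. Across both series the genotypes overlapped, as they did for each of the 10. A full separation of the genotypes occurred in 2.03% of the genes tested with Klf9 f/f higher, and in 1.35% with Klf9 f/f lower. The fold was 1.21, with a 95% interval of 0.992 to 1.49 and an unadjusted p of 0.0576 by edgeR's quasi-likelihood test. With DESeq2 the unadjusted p was 0.0485, and without Klf9 +/+ replicate 2 it was 0.0444 by edgeR's quasi-likelihood test. With the choroid plexus, endothelial and mural, or astrocyte marker level as a covariate the log2 fold change of Llgl1 was 0.42, 0.25 or 0.24, none of them called. Llgl2, its close relative, was scarce, at 2.17 ± 1.69 (SD, n = 3) CPM in Klf9 +/+ and 1.16 ± 0.593 (SD, n = 3) CPM in Klf9 f/f.

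Gpsm2 (ENSMUSG00000027883, minus strand of chromosome 3, 108481556 to 108525105) had neighbouring values in the genotypes, at 59.2, 63.5 and 72.8 CPM in Klf9 +/+, against 71.5, 59.9 and 72.7 CPM in Klf9 f/f, with a log2 fold change of 0.07 ± 0.13 (SE) and an interval of -0.23 to 0.36. Exons of Clcc1, on the opposite strand, overlap 5.36% of the exon bases of Gpsm2, and reads there could not be assigned by the unstranded counting. For Llgl1 the overlap, with Flii, was 1.32%, and for Numbl, with Adck4, 0.98%. The exons of the other 7 genes overlapped no other annotated gene.

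Cdh2 (ENSMUSG00000024304, minus strand of chromosome 18, 16747386 to 16967755) had the largest log2 fold change of the 10. It was at 103, 145 and 125 CPM in Klf9 +/+, against 170.0, 111 and 181 CPM in Klf9 f/f, so that Klf9 f/f replicates 1 and 3 were the 2 highest samples and replicate 2 lay among the controls. The log2 fold change was 0.30 ± 0.20 (SE), with an interval of -0.15 to 0.75. The log2 difference was 0.17 within series 22 and 0.54 in series 32. Without Klf9 f/f replicate 2 the log2 fold change was 0.49 and the gene passed the threshold (unadjusted p = 0.0261), and without Klf9 +/+ replicate 2 it was 0.48 (unadjusted p = 0.0445, both by edgeR's quasi-likelihood test). The summed astrocyte markers were also highest in Klf9 f/f replicates 1 and 3, at 20590 and 21100 CPM, and lowest among the 3, at 17450 CPM, in replicate 2. In Klf9 +/+ replicates 1, 2 and 3 the astrocyte markers summed to 17940, 14070 and 14370 CPM. There the order was the other way, since replicate 1 had the highest sum and the lowest Cdh2, and replicate 2 the lowest sum and the highest Cdh2. When the mean astrocyte marker level entered as a covariate, the log2 fold change of Cdh2 was 0.09. With the choroid plexus or the endothelial and mural level it was 0.73 or 0.31, and none of these values was called. The part of astrocyte content in the values of Cdh2 was not tested.

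**Figure D2:**
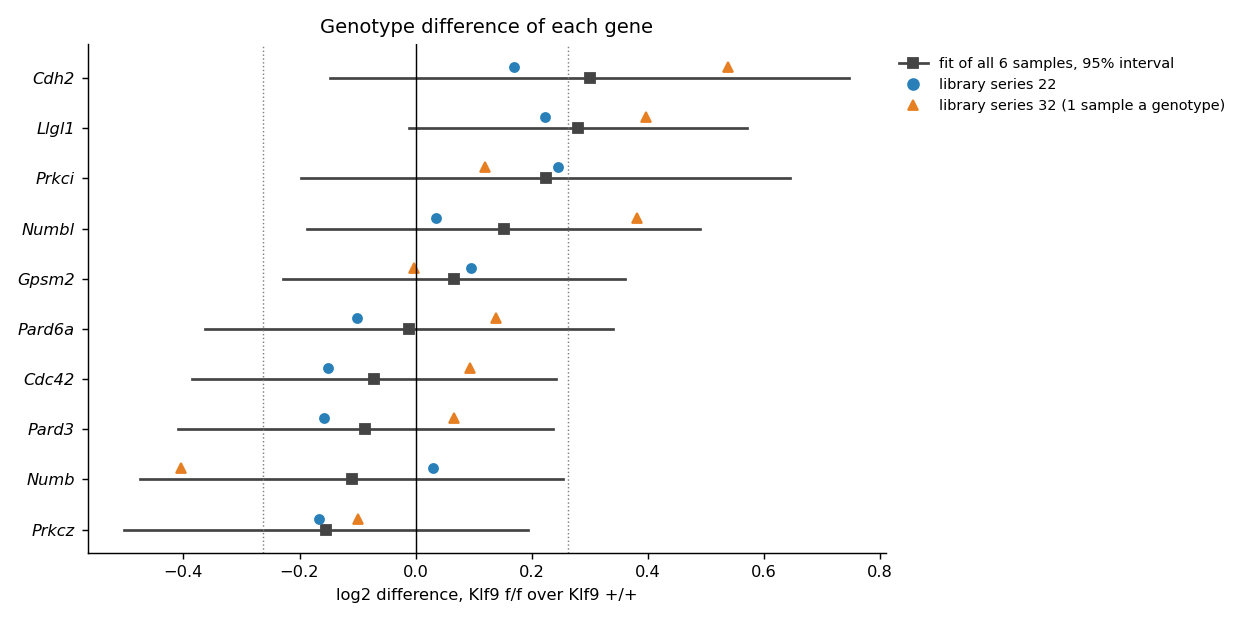
Log2 difference between Klf9 f/f and Klf9 +/+ for each gene. Squares with bars are the fit of all 6 samples with its 95% interval, circles the difference within library series 22, triangles that of series 32 (1 sample a genotype), and dotted lines mark 1.2-fold. Every interval covers 0, and that of Llgl1, from -0.01 to 0.57, does so by the least.

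Differences between the library series were larger than those between the genotypes. The log2 difference of series 32 over series 22 was larger than the genotype difference for 8 of the 10 genes, all but Prkcz and Cdh2. It was 0.84 for Llgl1, 0.74 for Prkci and 0.69 for Numb, and -0.55 for Pard6a and -0.37 for Cdc42. The samples of the series did not overlap for 7 of the 10, with Numb, Numbl, Prkci, Llgl1 and Gpsm2 higher in series 32 and Pard6a and Cdc42 lower. The same was true of 53.7% of all genes tested, so this share is near the background. The shares of reads that HTSeq set aside also differed by series, with 7.63 to 8.95% mapped to several places in series 22 and 13.0 and 13.6% in series 32. The part of this in the levels was not tested.

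Levels between genes were compared as CPM per kb of exon, taking all exons of a gene as its length. Cdc42 stood at 219 ± 44.2 (SD, n = 3) in Klf9 +/+, above 98.4% of the genes tested. Llgl1 at 26.1 ± 8.52 and Pard6a at 25.9 ± 6.41 (SD, n = 3) followed, then Gpsm2 at 17.2 ± 1.84, Cdh2 at 15.4 ± 2.58 and Prkci at 10.1 ± 3.57. Numbl at 6.44 ± 0.725, Numb at 6.12 ± 2.41, Prkcz at 4.47 ± 0.661 and Pard3 at 3.05 ± 0.321 (SD, n = 3) were the lowest, with Pard3 above 34.2% of the genes tested. Of the 9 steps in this order, only those from Cdc42 to Llgl1, from Prkci to Numbl and from Prkcz to Pard3 separated the Klf9 +/+ samples without overlap. The order of the low genes depended on the length used: with the longest coding transcript as length, Numbl was at 20.2 and Pard3 at 7.59, and Numb was the lowest at 6.59.

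**Figure D3:**
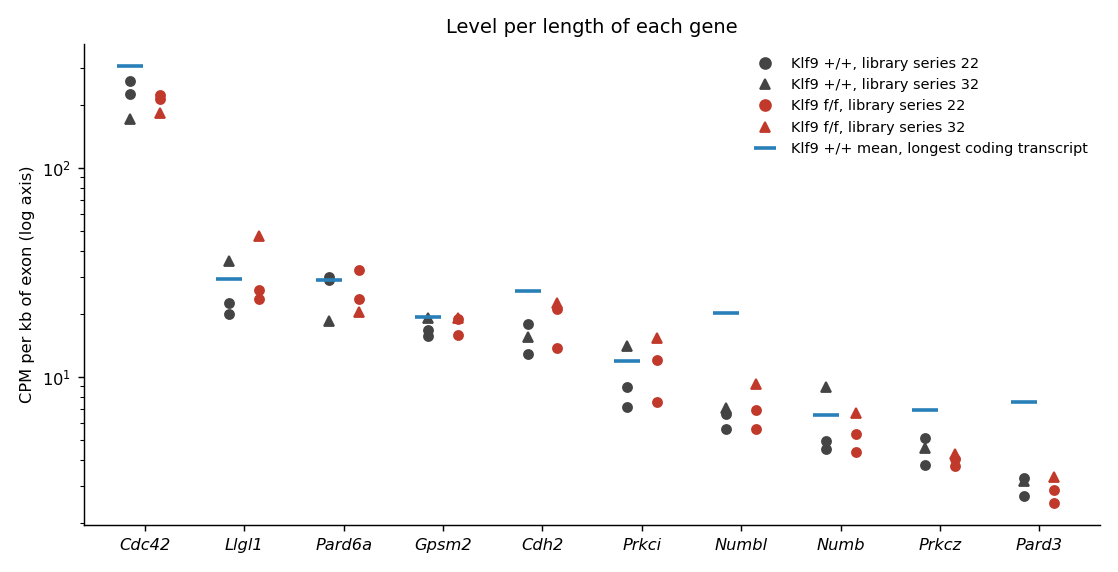
CPM per kb of exon on a log axis for each gene, ordered by the Klf9 +/+ mean; points are samples as in the legend, and the blue bars give the Klf9 +/+ mean with the longest coding transcript as the length. Cdc42 lies apart from the other 9 genes, whose neighbours mostly overlap.

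The wider polarity machinery was described with 6 lists that held 100 genes with the 10 among them, all of them tested. Of the 100, 1 was called higher and 1 lower, no larger a share than the 1.82% and 2.5% of all genes tested. Both were in the Scribble and Crumbs modules, which position the border between the cortical domains. The gene called lower, Crb3, passed the filter through Klf9 +/+ replicate 3 alone. Log2 fold changes of these 100 had a median of 0.05, with 62 positive and 38 negative, and those of all genes tested a median of 0.00084, with 7553 positive and 7503 negative. Crb2, which encodes a transmembrane protein of the apical Crumbs complex, was at 2.63, 2.26 and 6.83 CPM in Klf9 +/+, against 4.82, 2.84 and 11.7 CPM in Klf9 f/f. Each Klf9 f/f sample was above the Klf9 +/+ samples of its own series, and the log2 fold change was 0.69 ± 0.26 (SE, adjusted p = 1.00 by edgeR's quasi-likelihood test). With the astrocyte marker level as a covariate it was 0.24 and with that of the choroid plexus 0.52, neither of them called, and with that of endothelial and mural cells it was 1.04 and called. The call was also lost when Klf9 +/+ replicate 2 or 3 or Klf9 f/f replicate 1 or 3 was left out, with log2 fold changes of 0.65, 0.65, 0.47 and 0.65.

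Crb3, the epithelial member of the Crumbs family, was called lower, with a log2 fold change of -1.67 ± 0.71 (SE, adjusted p = 1.00 by edgeR's quasi-likelihood test). It rested on few reads, 3, 34 and 67 in Klf9 +/+ and 8, 6 and 12 in Klf9 f/f. Only Klf9 +/+ replicate 3, at 2.19 CPM, exceeded 1 CPM. The gene was thus tested only through a sample of the group where it was higher, and its call is given as a description. Klf9 +/+ replicate 1 had the fewest, and the 2 higher samples were Klf9 +/+ replicates 2 and 3. The summed choroid plexus markers, from a polarized epithelium, were at 256, 990.1 and 4130 CPM in the same Klf9 +/+ samples and at 186, 107 and 773 CPM in the Klf9 f/f samples. With their mean level as a covariate, the log2 fold change of Crb3 turned to 2.32 ± 1.29 (SE), which was not called, and without Klf9 +/+ replicate 2 it was -0.85, also not called. Without Klf9 f/f replicate 1, 2 or 3 the value was -1.76, -1.72 or -1.43 and again not called, and without Klf9 +/+ replicate 3 the gene did not pass the filter. It remained called, at -2.16, without Klf9 +/+ replicate 1 and, at -2.52, with the endothelial and mural covariate, while with the astrocyte covariate it was -0.47 and not called.

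In the Scribble and Crumbs list of 16, Lin7c and Llgl1 were the most abundant, and Lin7c was at -0.08 ± 0.17 (SE). Scrib, the namesake of the module, was at 0.34 ± 0.16 (SE) with an unadjusted p of 0.0543 by edgeR's quasi-likelihood test, and was picked out after its value was seen. The spindle orientation list had 0 of 21 called, near the 4.32% of all genes tested, and a median of 0.07. Gnai2 and Gnai3, the G-protein partners of LGN at the cortex, were at 0.11 ± 0.16 and 0.02 ± 0.15 (SE). Numa1, the spindle-pole protein that LGN binds, was at 0.23 ± 0.13 (SE), and its Klf9 f/f samples all lay above its Klf9 +/+ samples. Aspm of the same list, at 0.18 ± 0.13 (SE), was separated in the same way, as were 2.03% of all genes tested. Both were picked out after their values were seen.

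Among the partners of Numb and other segregated determinants, 0 of 17 were called and 13 had positive values, with a median of 0.14. Of all 15056 genes tested, 7553 had positive values and 4.32% were called. In lists this short, here and below, 0 called is near that share. Ap2m1, a subunit of the endocytic adaptor complex that Numb binds, and Trim32 were the most abundant, at -0.01 ± 0.14 and 0.04 ± 0.18 (SE). The adherens junction list had 0 of 14 called and a median of 0.13, where beta-catenin (Ctnnb1) and alpha-catenin (Ctnna1), which link cadherins to actin, were at 0.09 ± 0.16 and 0.20 ± 0.15 (SE). The planar cell polarity list had 0 of 13 called and a median of 0.04, with Dvl1 and Dvl2 at 0.18 ± 0.15 and 0.19 ± 0.12 (SE).

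**Figure D4:**
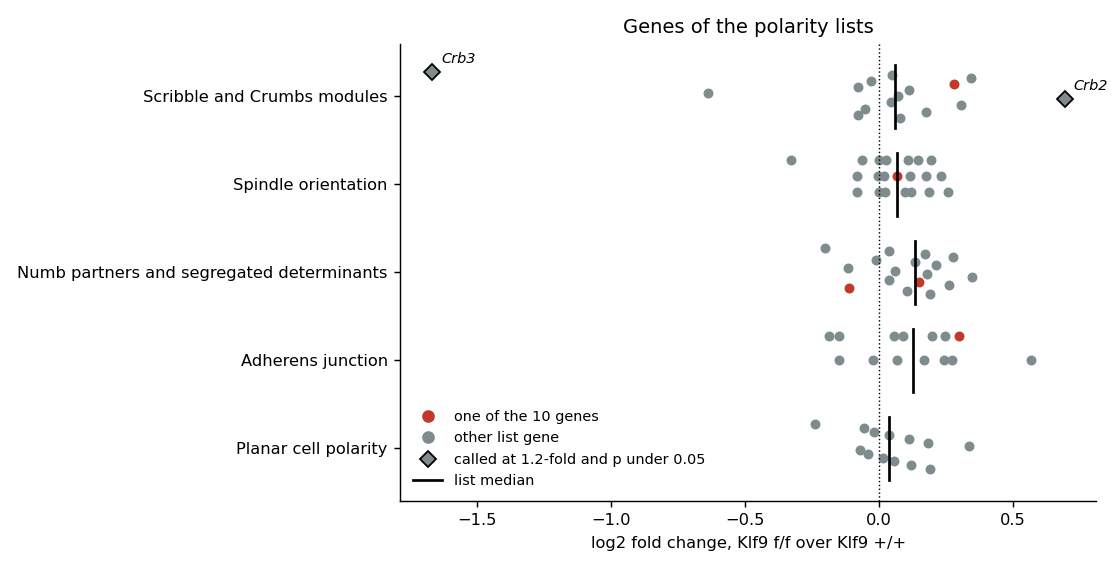
Log2 fold change, Klf9 f/f over Klf9 +/+, of each gene of 5 of the 6 polarity lists, with a black bar at the median of each list. Red points are Numb, Numbl, Llgl1, Gpsm2 and Cdh2. Diamonds are the 2 genes called at 1.2-fold and p under 0.05, Crb2 at 0.69 and Crb3 at -1.67. Crb3 passed the filter through Klf9 +/+ replicate 3 alone. The list medians lie between 0.04 and 0.14.

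Klf9 is a zinc-finger protein that binds GC-rich boxes, and the promoters of these genes were therefore read for the letters GGGCGG on both strands, with overlapping matches counted separately. RefSeq windows of 300 bases on GRCm38.p6, from 250 before to 50 after a start site, were at hand for 9 of the 10 genes, all but Cdh2. Of their 15 windows, 12 (80.0%) held the letters, against 35.7% of the 32851 windows of all genes, and their median GC content was 59.3% against 52.7%. The letters CACCC, also read on both strands, were in 11 of the 15 windows, against 57.5% of all windows. The windows of all genes were not limited to genes found in these samples, so the shares are not a matched comparison. For a gene with several starts, the start in use in these cells was not determined. A match is a description of the letters and not of binding. The windows of Numbl, which held the most matches in one window, 6, and of Llgl1, the gene nearest to the threshold, which held 1, are shown with the matches in capitals, on the plus strand at chr7:27258511-27258810 and chr11:60699450-60699749.
Numbl: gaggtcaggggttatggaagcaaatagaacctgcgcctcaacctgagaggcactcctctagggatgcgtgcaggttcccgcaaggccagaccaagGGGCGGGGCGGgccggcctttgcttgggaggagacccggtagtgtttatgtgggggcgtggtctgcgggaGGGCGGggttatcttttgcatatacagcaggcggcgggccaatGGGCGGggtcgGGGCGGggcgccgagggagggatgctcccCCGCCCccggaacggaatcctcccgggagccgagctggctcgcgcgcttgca
Llgl1: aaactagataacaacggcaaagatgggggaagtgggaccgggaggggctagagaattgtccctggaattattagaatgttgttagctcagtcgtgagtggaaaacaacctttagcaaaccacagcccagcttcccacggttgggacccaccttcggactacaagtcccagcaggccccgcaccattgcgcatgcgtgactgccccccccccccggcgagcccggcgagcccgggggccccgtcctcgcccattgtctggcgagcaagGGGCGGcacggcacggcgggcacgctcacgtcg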

How the data were processed

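For each pooled sample the authors deposited raw whole-number counts per gene, made with STAR alignment to mm9 and unstranded HTSeq counting. The STAR version is not given in the sources used here. The 5 summary lines of HTSeq, 16.4 to 26.6% of the reads listed per sample, were left out of every test. Names, positions and exon lengths came from GENCODE M1 on the same build, which named 37205 of 37620 genes. The 15056 genes that exceeded 1 CPM in 1 or more samples were scaled by TMM and tested with edgeR 4.0.16 (glmQLFit, glmQLFTest) under R 4.3.3, with library series, read from the titles' codes, as a term and 3 residual degrees of freedom. A standard error is the log2 fold change divided by the square root of F. Genes were called at 1.2-fold and p under 0.05, and also by Benjamini-Hochberg adjusted p. The pools are separate samples by their labels. Quasi-likelihood p-values and intervals set the genotype difference against the spread between pools. In them each gene's spread was drawn toward that of all genes, for a median of 9.13 degrees of freedom. CPM are after TMM scaling.

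The 10 genes, the pathway and marker lists and the tests were chosen with earlier results of these data known. Genes named are the 10, every called gene of the lists, and the 2 most abundant per kb in each list; close relatives of the 10 and any other gene were picked after their values were seen. Sapcd2, matched to no symbol, was not analysed here, and the result of 1 of the 6 lists is not reported here. Alternatives were DESeq2 1.42.0, the likelihood-ratio test, upper-quartile scaling, other filters, no series term, each sample left out, series 22 alone, and marker covariates; the transcript length was added after the data were seen. Scripts were tested on simulated data. Figures used matplotlib 3.10.9.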

Additional observations from a re-analysis of the deposited data

How the results depend on the processing

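With 3 pools a genotype, and 1 a genotype in series 32, the values do not tell apart the differences inside an interval. Each fit without a sample of series 32 rests on series 22 alone. No paired analysis was possible because the labels pair no samples. Over 16 alternative fits of each of the 10 genes (160 values), the log2 fold change ran from -0.30 to 0.73, changed sign in 19 and was called in 4. Those 4 were Llgl1 with DESeq2 and without Klf9 +/+ replicate 2, and Cdh2 without Klf9 +/+ replicate 2 and without Klf9 f/f replicate 2. The number of the 10 called higher was 0 in the main fit, 1 with DESeq2 and 0 to 2 with a sample left out. Over all genes tested, 277 of 15056 were called higher with DESeq2. Without Klf9 +/+ replicate 2 this was 186 of 15004, and without Klf9 f/f replicate 2 it was 493 of 15008. Of the 10, 0 were called lower in any fit.

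With the choroid plexus covariate the sign turned for Numb (0.16), Pard3 (0.13), Prkcz (0.26), Cdc42 (0.049) and Crb3 (2.32). With the endothelial and mural covariate it turned for Numb (0.0012) and Numbl (-0.10), and with the astrocyte covariate for Pard3 (0.051), Pard6a (0.16), Prkci (-0.00099) and Gpsm2 (-0.011). In series 22 alone Numb was at 0.032. With a sample left out, the ranges of those that turned were -0.24 to 0.036 for Numb, -0.17 to 0.022 for Pard3, -0.13 to 0.14 for Pard6a, -0.0043 to 0.38 for Prkci, -0.020 to 0.13 for Gpsm2 and -0.16 to 0.0083 for Cdc42. The ratios of Numb to Numbl and of Prkci to Prkcz kept their sign in every alternative run, with log2 differences of -0.43 to -0.03 and 0.16 to 0.60 when a sample was left out. In series 22 alone the differences were -0.0050 and 0.41, so for Numb to Numbl the sign there carries little. The Numb to Numbl difference came from series 32, with 1 sample a genotype.

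Of the 100 genes of the lists, 1 was called higher and 1 lower. The counts were 0 and 0 without the series term and in series 22 alone, 2 (Crb2 and Llgl1) and 0 with DESeq2, 2 (Crb2 and Vcl) higher with every gene of at least 1 count, and 0 lower with the filter of 3 samples. Under choroid plexus adjustment they were 4 (Arhgef7, Ctnna2, Ptk7 and Trim32) and 2 (Celsr1 and Pard3b), beside 334 and 593 of all 15056 genes tested. With the endothelial and mural covariate they were 6 (Crb2, Dlg1, Plekha7, Prickle1, Scrib and Vcl) and 4 (Celsr3, Crb3, Gpsm1 and Insc), beside 734 and 768 of all genes tested. With the astrocyte covariate they were 0 higher and 1 lower (Llgl2), beside 136 and 640 of all genes tested. With a sample left out, the counts among the 100 ranged from 0 to 6 higher and 0 to 2 lower. They were 6 higher without Klf9 +/+ replicate 2 and without Klf9 f/f replicate 2, beside 186 and 493 of all genes tested. Insc, which encodes a partner of LGN and Par3, was the 1 gene of the 100 with an adjusted p under 0.05 in any fit. It was at -1.55 ± 0.24 (SE, adjusted p = 0.0176 by edgeR's quasi-likelihood test) with the endothelial and mural covariate. In that fit 89 of all 15056 genes tested had an adjusted p under 0.05. The list genes named here were picked out after their values were seen, and the cause of the shifts was not tested.

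Over all genes tested, 274 were called higher, 376 lower and 0 by adjusted p. The counts were 50 higher and 163 lower without the series term, 513, 926 and 334 with every gene of at least 1 count, 593 lower under choroid plexus adjustment, 734, 768 and 89 with the endothelial and mural covariate, 136, 640 and 23 with the astrocyte covariate, and 163, 202 and 13 in series 22 alone. By adjusted p, 58 were called by the likelihood-ratio test and 39 by DESeq2. With a sample left out they ranged from 130 to 493 higher, from 209 to 719 lower and from 0 to 15 by adjusted p. With the longest coding transcript as length, the Klf9 +/+ levels per kb of Gpsm2, Prkcz, Cdh2 and Cdc42 were 19.3, 6.92, 25.7 and 308.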

Other observations

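The tested genes whose log2 CPM followed a gene most closely over the 6 samples were Mgat2 and Man1a for Numb (Pearson's r of 0.998 and 0.995), Tmem2 and Ulk1 for Pard3 (0.997 and 0.996), and Supt5h and Uba6 for Cdh2 (0.985 and 0.980). These values are the highest of all genes tested, over 4 samples of library series 22 and 2 of series 32, and the difference between the series enters them. They are given as a description. With the mean of each series removed, Prkci and Gpsm2 were the pair of the 10 that moved most alike (r of 0.986), and Pard6a and Gpsm2 the most unlike pair (r of -0.860), again over 6 samples.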
